A study of Rattus norvegicus with 6 samples.

Results

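The hepatocyte nuclear factors described here are Hnf4a and Hnf4g, followed in primary rat beta cells with and without knockdown of Nova1, a neuronal and beta cell RNA-binding protein that regulates alternative splicing. All transcripts whose gene name in the deposited assembly is one of these 2 symbols were taken, which gave 2 genes of 24579 gene models and 7 transcripts of 60887, 5 of Hnf4a and 2 of Hnf4g. Both genes passed the filter on low reads and were among the 15983 genes tested. In the knockdown group, sorted beta cells received 30 nM of an siRNA against Nova1. In the control group, cells received 30 nM of a commercial negative control siRNA. Transfection lasted 16 h and recovery 48 h in both, so all 6 libraries come from transfected cells. Each of 3 batches of cells was divided between both treatments, giving 3 poly(A) RNA-seq libraries per group. Whether each batch came from different rats is not in the labels, so the tests speak only of the variation among these 3 preparations.

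HNF4 proteins are nuclear receptors that bind DNA as dimers at direct repeats of a hormone receptor core motif, with fatty acids found in the ligand pocket. HNF4A controls hepatocyte, gut epithelial and kidney tubule genes, and in people its inactivation on one allele causes a form of maturity-onset diabetes of the young through defective insulin secretion. HNF4G is a close paralogue made in gut, kidney and pancreas. In mouse and human the HNF4A gene has a downstream promoter, P1, used mainly in adult liver, and a distant upstream promoter, P2, which is the main one in islets, and the encoded proteins differ at the amino terminus.

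Hnf4a lay on the plus strand of chromosome 3 between 166089688 and 166156333 (locus XLOC_019763, Rnor_5.0). Its transcripts began at 3 places. A 36 nt exon at 166089688 opened 1 transcript, a 291 nt exon at 166092973 opened 2, and a 131 nt exon at 166127644 opened 2. The upstream starts lay 37956 bp and 34671 bp before the downstream one and 3285 bp apart, and both are pooled here as the upstream, P2-side, starts. The start rule of the design, at least 20 kb before the nearest start downstream, fits the one at 166092973 alone, and the results are also given for each. The transcripts from the downstream, P1-side, start were the ones that match a reference transcript, and those from the upstream starts were assembled as new splice combinations of the gene. The 300 bases around an upstream and a downstream Hnf4a start are given from RefSeq on the build GRCr8, plus strand, where these starts lie 35616 bp apart. That distance equals neither of those on Rnor_5.0, and the windows were not matched to the assembled starts. Each window holds 250 bases before the start and 50 from it.
Hnf4a upstream, chr3:172605970-172606269: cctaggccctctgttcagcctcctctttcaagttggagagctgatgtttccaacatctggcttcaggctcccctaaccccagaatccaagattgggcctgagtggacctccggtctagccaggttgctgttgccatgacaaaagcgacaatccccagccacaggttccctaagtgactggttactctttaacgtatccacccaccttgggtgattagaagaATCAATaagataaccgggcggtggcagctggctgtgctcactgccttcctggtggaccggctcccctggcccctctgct
Hnf4a downstream, chr3:172641586-172641885: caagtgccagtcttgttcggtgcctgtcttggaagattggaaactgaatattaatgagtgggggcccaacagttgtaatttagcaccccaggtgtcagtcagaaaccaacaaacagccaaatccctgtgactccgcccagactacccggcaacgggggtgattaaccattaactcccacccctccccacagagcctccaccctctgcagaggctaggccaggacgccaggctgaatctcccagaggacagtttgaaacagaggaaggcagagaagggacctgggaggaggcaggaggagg
Capitals mark a match to a short motif searched on both strands. The core motif of Onecut factors such as HNF6, ATCAAT, matched once in the upstream window, 29 bases before the start, and not in the downstream one, and 8.06% of 33469 rat promoter windows of this length hold it. The nuclear receptor core AGGTCA, held by 16.2% of windows, the Foxa core TGTTTAC, held by 3.78%, and the TATA box TATAAA, held by 14.2%, had no match in either Hnf4a window. The match is of letters in a window and not a measured site.

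The 5 Hnf4a transcripts had 10 exons each and shared 7 of them exactly. Beside the start, they differed at exon 9, which ran from 166151530 to 166151652 (123 nt) or to 166151682 (153 nt), a difference of 30 nt or 10 codons. In mouse and human a 10-residue insertion of this kind separates the HNF4A splice forms in the carboxy-terminal F domain. Transcripts are named below by start and exon 9. U1-short opens at the 36 nt exon and U2-short at the 291 nt exon, both with the shorter exon 9, and U2-long opens at the 291 nt exon with the longer one. The 2 transcripts from the downstream start (D) both carry the longer exon 9 and end at 166152838 (near end) or at 166156333 (far end). The far end is that of a last exon of 3640 nt.

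Hnf4g lay on the minus strand of chromosome 2 between 119960474 and 120108144 (XLOC_016829). Its 2 transcripts shared 8 exons exactly. The assembled form of 4326 nt holds an extra exon of 118 nt (120034451 to 120034568), not a multiple of 3, that lies 73178 bp after the first exon and 52106 bp before the next. The reference form of 2284 nt skips it across an intron of 125402 bp. The last exon was 2679 nt in the assembled form, 61.9% of its length, and 922 nt in the reference form.

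**Figure D1:**
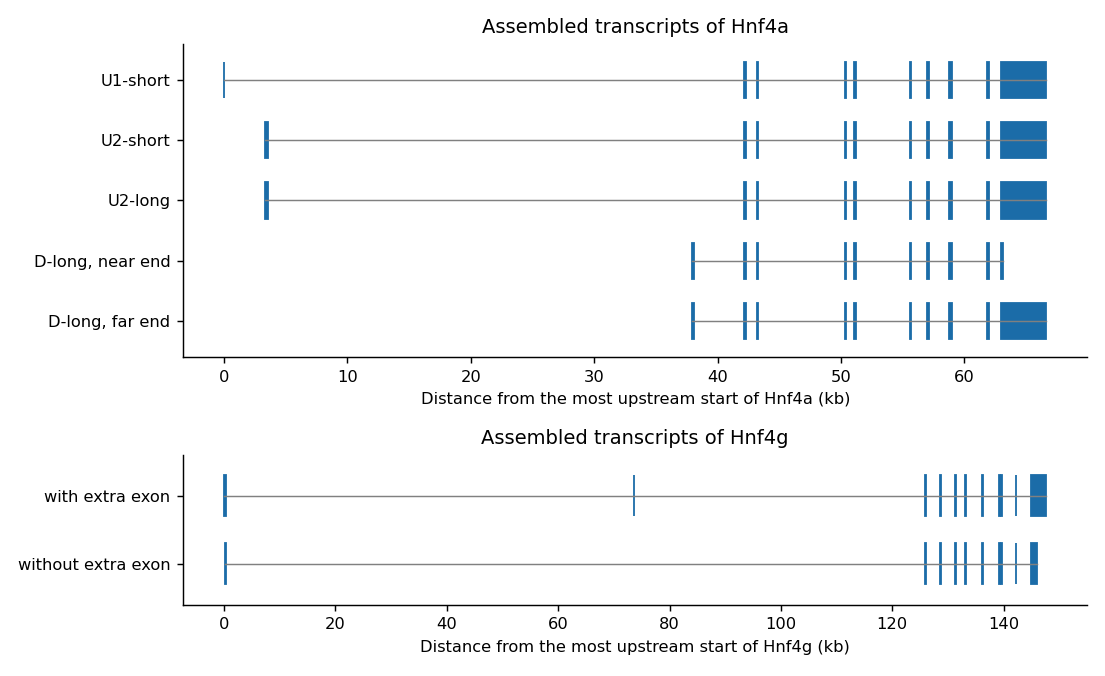
Exons of the 5 Hnf4a and 2 Hnf4g transcripts as boxes, with the x axis giving distance in kb from the 5' end of each locus. Hnf4a has starts about 38.0 and 34.7 kb upstream of the downstream one, and the Hnf4g form with the 118 nt exon uses it 73.2 kb into the intron.

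The knockdown libraries held 95394043 to 146453308 estimated reads and the control libraries 122637234 to 292432076, each summed over all transcripts. Read sums were nearly all even, so both mates of a pair may have been counted, and the number of fragments behind each read value may be smaller. Nova1 itself had 7.76, 10.2 and 9.43 CPM (reads relative to the scaled library total) in knockdown libraries, against 20.6, 21.5 and 17.4 CPM in control libraries, batches 1 to 3. Its log2 fold change was -1.12 (SE 0.11, limma adjusted p = 0.038), so the labels of all 6 libraries held in CPM. Per length and library size (RPKM), Nova1 had 1.38, 2.38 and 1.81 in knockdown libraries, against 5.06, 2.83 and 2.03 in control libraries. By RPKM it was lower in the knockdown library of each batch, while the groups overlapped. Of the 15983 genes, 1.71% passed an adjusted p of 0.05, 0.513% higher and 1.2% lower in knockdown cells. The median log2 fold change over all genes was 0.0035.

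Hnf4a was higher in the knockdown library of each batch, by 18.4% in the fit, and Hnf4g was 16.0% higher, and neither gene passed the test across all genes. Hnf4a counted 2378, 2758 and 2754 reads in knockdown libraries, against 4608, 2928 and 2820 reads in control libraries, batches 1 to 3. On the scaled CPM these are 19.1, 25.4 and 19.3 in knockdown libraries (mean 21.3 ± 3.60, SD, n = 3), against 16.7, 22.5 and 15 in control libraries (18.1 ± 3.92, SD, n = 3). Batch 2 had the highest Hnf4a of either group, and the groups overlapped, since the knockdown libraries of batches 1 and 3 lay below the control library of batch 2. Within batches the log2 difference, knockdown minus control, was 0.19, 0.18 and 0.37, and 25.8% of all genes tested were higher in knockdown in 3 of 3 batches. The fitted log2 fold change with batch as a block was 0.24 (SE 0.06), with an unadjusted p of 0.0108 and a Benjamini-Hochberg adjusted p of 0.11 (limma voom). An unadjusted p below 0.05 was met by 23.9% of all genes, and by 12.4% of all genes with a positive fold change.

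Hnf4g, the less abundant paralogue, counted 792, 814 and 996 reads in knockdown libraries, against 1726, 732 and 1106 reads in control libraries. The scaled values were 6.35, 7.50 and 6.99 CPM in knockdown libraries (6.95 ± 0.578, SD, n = 3), against 6.25, 5.62 and 5.88 CPM in control libraries (5.92 ± 0.318, SD, n = 3). The groups did not overlap, which held in this direction for 3.99% of all genes tested, and the knockdown library of batch 1 exceeded the control library of that batch by a log2 difference of 0.02. The differences in batches 2 and 3 were 0.42 and 0.25. The fitted log2 fold change was 0.21 (SE 0.10, unadjusted p = 0.075, limma adjusted p = 0.25). Without batch 2 the fitted value was 0.13, and without batch 1 it was 0.32.

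Per length and library size, Hnf4a summed to 3.84, 6.65 and 4.14 RPKM in knockdown libraries (4.88 ± 1.55, SD, n = 3), against 3.64, 5.15 and 3.28 RPKM in control libraries (4.02 ± 0.990, SD, n = 3). Hnf4g summed to 1.54, 2.16 and 1.85 RPKM in knockdown libraries (1.85 ± 0.313, SD, n = 3), against 1.59, 1.57 and 1.60 RPKM in control libraries (1.59 ± 0.0177, SD, n = 3). On this scale the knockdown library of batch 1 lay below all controls, so the separation of the Hnf4g groups seen in CPM was not present. Hnf4g stood at 40.0%, 32.5% and 44.7% of the Hnf4a level in knockdown libraries and at 43.6%, 30.5% and 48.9% in control libraries. In control cells the Hnf4a level was at percentile 46.5 of the genes tested and that of Hnf4g at percentile 31.3, where the median gene had 4.81 RPKM. Hnf4a was thus the more abundant of the pair in all 6 libraries, at a mid-range level for these cells.

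**Figure D2:**
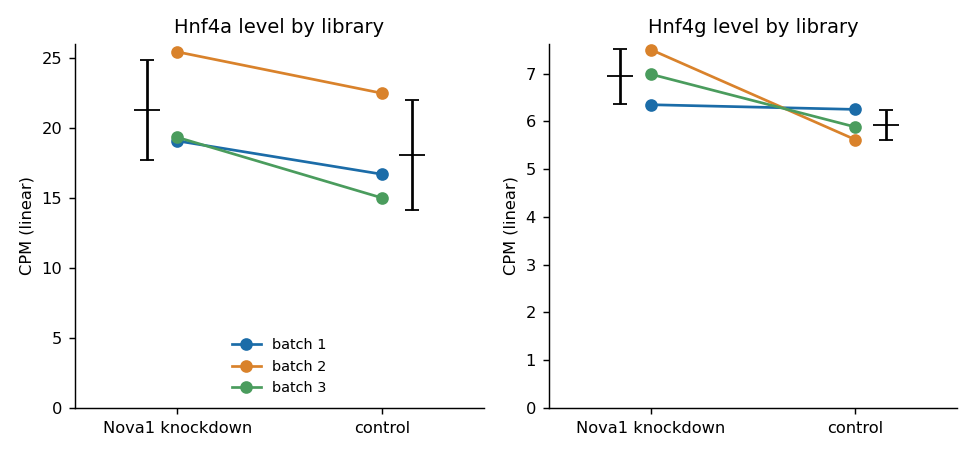
Scaled CPM (y axis, from 0) of Hnf4a and Hnf4g in each library, knockdown left of control, with lines joining the libraries of 1 batch and bars for the mean and SD of 3 libraries. Each line is higher at the knockdown end for Hnf4a, while its groups overlap, and Hnf4g averages 6.95 CPM in knockdown and 5.92 CPM in control cells.

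Both HNF4 genes are long, at percentiles 81.3 (Hnf4a) and 73.9 (Hnf4g) of length among the genes tested. Genes within 1.25 times the length of Hnf4a had a median log2 fold change of 0.08 (n = 2810), and those within 1.25 times the length of Hnf4g a median of 0.06 (n = 3294), both above that of all genes. After a smooth correction for length, Hnf4a had a log2 fold change of 0.18 (limma adjusted p = 0.13) and Hnf4g one of 0.17 (adjusted p = 0.29), where 3.89% of genes passed. By the signed, uncorrected log2 fold change Hnf4a stood at percentile 85.0 and Hnf4g at 82.5 of all genes. Neither gene was therefore among the highest fold changes of the experiment.

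Transcripts from the upstream starts held most of the Hnf4a RPKM in every library. All of them end in the last exon of 3640 nt, whereas the near-end downstream transcript has a last exon of 145 nt. The far-end downstream transcript was listed at 0 in 4 libraries. The start shares thus compare whole assembled models and not the use of a start alone. Their summed level was 3.65, 5.09 and 3.49 RPKM in knockdown libraries, against 2.98, 4.20 and 2.39 RPKM in control libraries. The downstream start, with the P1-type first exon, gave 0.191, 1.56 and 0.652 RPKM in knockdown libraries, against 0.655, 0.942 and 0.891 RPKM in control libraries. As a share of Hnf4a RPKM, the upstream starts held 95.0%, 76.5% and 84.3% in knockdown libraries (85.3% ± 9.30, SD, n = 3), against 82.0%, 81.7% and 72.8% in control libraries (78.8% ± 5.21, SD, n = 3). The share was higher in knockdown cells in batches 1 and 3, by 13.0 and 11.4 percentage points, and lower in batch 2, with a difference of -5.18. The mean difference of 6.42 points had an exact two-sided sign-change p of 0.5 within batches and an exact permutation p of 0.4 over the 6 libraries, where 3 batches allow no p below 0.25 and 3 against 3 libraries none below 0.1. Taken apart, the start at 166092973 had differences of -17.8, -3.05 and 28.2 points in batches 1 to 3 (mean 2.47), and the start at 166089688 had 30.8, -2.14 and -16.8 points (mean 3.95, exact sign-change p = 1 for each). Neither upstream start alone thus had the same sign in all 3 batches.

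By estimated reads, which are not divided by length, the upstream shares were 98.5%, 91.8% and 94.9% in knockdown libraries, against 94.0%, 90.6% and 86.0% in control libraries. On this measure the knockdown library was higher in 3 of 3 batches, with a mean difference of 4.85 points (exact two-sided sign-change p = 0.25, the smallest 3 batches allow). In batch 2 the near-end downstream transcript held 8.22% of the reads in the knockdown library and 4.49% in the control library. The far-end one was listed at 0 in that knockdown library and held 4.89% of the reads in the control library. The sign in batch 2 thus depended on whether shares were taken of RPKM or of reads and, by reads, on the far-end transcript.

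Among single Hnf4a transcripts, U1-short held 74.2%, 41.2% and 32.9% of the RPKM in knockdown libraries, against 43.5%, 43.4% and 49.7% in control libraries. U2-long, which pairs the 291 nt first exon with the longer exon 9, held 20.8%, 31.6% and 29.0% in knockdown libraries, against 38.5%, 38.3% and 23.1% in control libraries. The near-end downstream transcript held 4.97%, 23.5% and 15.7% in knockdown libraries, against 18.0%, 13.9% and 21.7% in control libraries. The groups overlapped for all 3, and the knockdown libraries were more dispersed than the controls in U1-short, with the highest and lowest share both in that group. U2-short was listed at 0 in the knockdown library of batch 1 and in all 3 control libraries, and held 3.74% and 22.3% in the knockdown libraries of batches 2 and 3 (126.9 and 704.7 estimated reads). The far-end downstream transcript was listed at 0 in all 3 knockdown libraries and in the control library of batch 1, and held 4.42% and 5.46% in the control libraries of batches 2 and 3.

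U2-short and the far-end form, each listed at 0 in 4 libraries, did not pass the filter, and the reads of forms that share most exons can be moved between them by the estimate. Of the 3 Hnf4a transcripts tested for a change in share, U1-short had a diffSplice log2 value of 0.42 (limma adjusted p = 0.90), U2-long -0.38 (adjusted p = 0.93) and the near-end form -0.25 (adjusted p = 0.997). None passed, where 0.309% of 31429 transcripts did, and the Simes test of the gene gave an adjusted p of 0.79, where 0.702% of 9538 genes passed. Without batch 1, U2-short and the far-end form entered the test and both passed, with limma adjusted p-values of 0.0056 and 0.011 and a Simes adjusted p of 0.0070 for Hnf4a. In that setting 1.5% of 32334 transcripts and 3.24% of 9706 genes passed. Those 2 calls set estimates above 0 against a group listed at 0, so their fitted sizes depend on the prior count and are not given as folds. Each form also passed the filter only through the group where it was above 0. Its separation was thus fixed on entry, and neither these calls nor the Simes value is evidence of a change in share.

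By exon 9, the shorter form, without the 30 nt, held 74.2%, 45.0% and 55.2% of Hnf4a RPKM in knockdown libraries (58.1% ± 14.9, SD, n = 3), against 43.5%, 43.4% and 49.7% in control libraries (45.5% ± 3.63, SD, n = 3). The knockdown library was higher in 3 of 3 batches, by 30.8, 1.60 and 5.53 percentage points, although the groups overlapped, since the knockdown library of batch 2 lay below the control library of batch 3. The mean difference was 12.6 points (exact two-sided sign-change p = 0.25, the smallest 3 batches allow). In levels, transcripts with the shorter exon 9 summed to 2.85, 2.99 and 2.28 RPKM in knockdown libraries (2.71 ± 0.374, SD, n = 3), against 1.58, 2.23 and 1.63 RPKM in control libraries (1.81 ± 0.362, SD, n = 3). The groups did not overlap, but only with U2-short in the sum, which was listed at 0 in every control. U1-short alone had 2.85, 2.74 and 1.36 RPKM in knockdown libraries, against 1.58, 2.23 and 1.63 RPKM in control libraries. On its own it thus overlapped, and the separation of the sums is no evidence of a change. Non-overlap in this direction held for the whole-gene RPKM sums of 4.76% of the genes tested. For groups of transcripts within a gene that share was not computed. Transcripts with the longer exon 9 averaged 2.17 ± 1.36 RPKM in knockdown libraries and 2.21 ± 0.646 RPKM in control libraries (SD, n = 3 each). Because all transcripts from the downstream start carry the longer exon 9, this share also follows the start. Within the upstream forms the longer exon 9 held 21.9%, 41.2% and 34.5% of RPKM in knockdown libraries, against 47.0%, 46.9% and 31.8% in control libraries. Those differences were -25.1, -5.69 and 2.68 points, so the sign turned in batch 3 (mean -9.38, exact two-sided sign-change p = 0.5). The exon 9 grouping was chosen after the transcript values were seen, and 30.8 of its points in batch 1 are those of U1-short. In batches 2 and 3 U1-short differed by -2.14 and -16.8 points. The positive sign there came from U2-short, with 3.74% and 22.3% in knockdown libraries and listed at 0 in all controls. The same sign in 3 of 3 batches is thus no evidence of a change in exon 9 use.

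For Hnf4g, the form with the 118 nt exon held 80.0%, 71.5% and 63.5% of the RPKM in knockdown libraries (71.7% ± 8.29, SD, n = 3), against 69.9%, 67.4% and 51.4% in control libraries (62.9% ± 10.04, SD, n = 3). It was the more abundant form in all 6 libraries, and its share was higher in the knockdown library of each batch, by 10.1, 4.12 and 12.1 percentage points. The groups overlapped, since the knockdown library of batch 3 lay below the control libraries of batches 1 and 2. The diffSplice log2 value was 0.58 (unadjusted p = 0.11, limma adjusted p = 0.70), and the exact two-sided sign-change test of the share gave p = 0.25, the smallest 3 batches allow. Because the 2 forms also differ in the length of the last exon, the share compares whole assembled models and not the exon alone.

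**Figure D3:**
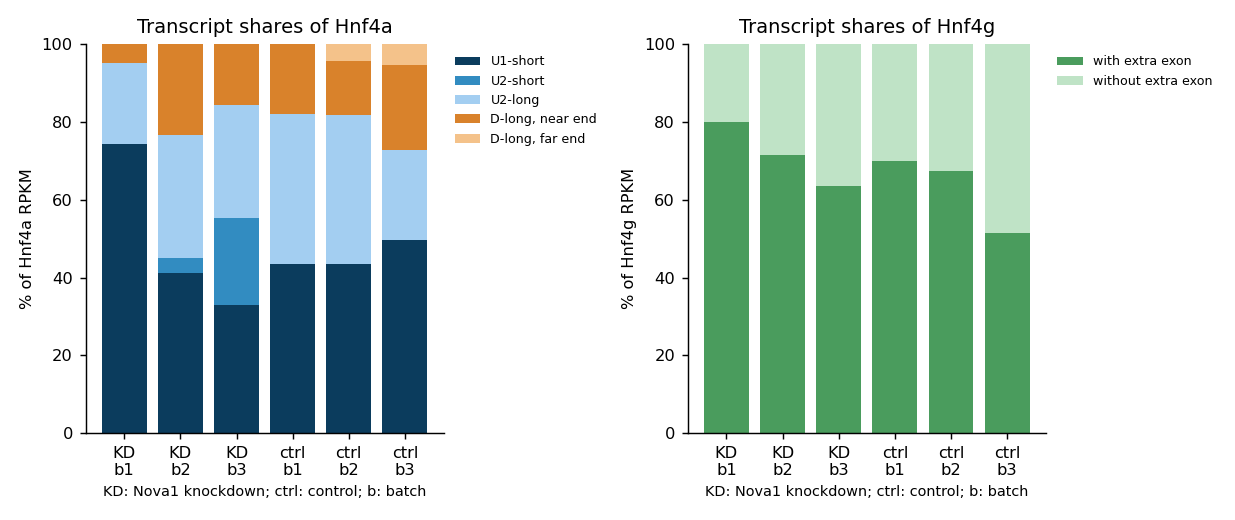
Stacked bars of the share of Hnf4a or Hnf4g RPKM (percent, y axis) held by each transcript in each library, knockdown left of control, with the 118 nt exon of Hnf4g as the extra exon. U1-short runs from 32.9% to 74.2% over the knockdown libraries and from 43.4% to 49.7% over the controls, and the Hnf4g form with the 118 nt exon holds 51.4% to 80.0% across all 6 libraries.

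HNF4 factors work in a circuit with FOXA, GATA, Onecut and RFX factors. Of 14 listed genes of this network, 10 could be tested and none passed the threshold. 9 of the 10 had a positive log2 fold change, with a median of 0.14, while 50.8% of all genes were positive. The FOXA pioneer factor genes Foxa2 and Foxa3 had 0.04 (limma adjusted p = 0.64) and 0.13 (adjusted p = 0.37), both below the value of Hnf4a. Rfx6 and Neurod1, islet cell factors picked after their values were seen, had 0.25 each (adjusted p = 0.067 and 0.079), and Rfx6 passed after the length correction (adjusted p = 0.048). Foxa1 and Onecut1 were at or near 0 in all libraries.

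By control level Foxa2 had 37.1 ± 2.42 RPKM, Foxa3 4.74 ± 0.332, Hnf4a 4.02 ± 0.990 and Hnf4g 1.59 ± 0.0177 (SD, n = 3 control libraries). Foxa3 and Hnf4a differed by less than the sum of their SDs, while Foxa2 lay above and Hnf4g below both by more. In knockdown libraries Foxa2 had 39.4 ± 2.61, Foxa3 5.41 ± 0.477, Hnf4a 4.88 ± 1.55 and Hnf4g 1.85 ± 0.313 RPKM (SD, n = 3), in the same order.

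HNF4 activates genes through coactivators, and all 14 listed coregulators could be tested, of which 12 had a positive log2 fold change and none passed. Their median was 0.16, and 0.04 after the length correction. Ppargc1a, the coactivator that drives gluconeogenic genes through HNF4A in liver, had a log2 fold change of -0.37 (limma adjusted p = 0.10), opposite in sign to both HNF4 genes, and passed after the length correction (adjusted p = 0.036). Its values were 32.9, 31.6 and 32.2 CPM in knockdown libraries, against 49.8, 35.6 and 40.0 CPM in control libraries, so the groups did not overlap, as held in this direction for 4.08% of genes. Ppargc1b had a log2 fold change of 0.12, and the steroid receptor coactivator genes Ncoa1 and Ncoa2 had 0.13 and 0.15, with adjusted p-values of 0.53, 0.39 and 0.41.

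Other nuclear receptors occupy the same direct repeat as HNF4. Of 13 listed, 11 could be tested, 6 were positive, none rose and 1 fell, with a median log2 fold change of 0.08, and of -0.02 after the length correction. The 1 that fell was Nr2f6 (EAR2), an orphan receptor of the COUP-TF family that can bind the HNF4 element, with 24.5, 18.5 and 23.4 CPM in knockdown libraries, against 32.6, 23.8 and 34.4 CPM in control libraries. It was lower in knockdown in 3 of 3 batches, as were 24.3% of all genes, with a log2 fold change of -0.45 (SE 0.06, limma adjusted p = 0.046), though the knockdown library of batch 1 lay above the control library of batch 2. Nr2f2, the COUP-TFII gene of the same family, had 0.41 (adjusted p = 0.094), and the retinoid X receptor genes Rxra, Rxrb and Rxrg had 0.10, -0.12 and 0.69 (adjusted p = 0.25, 0.32 and 0.47), Rxrg at no more than 0.17 CPM in any library.

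Of 36 listed HNF4 target genes of liver, gut, kidney and beta cell, 35 were in the assembly and 19 could be tested. Of these, 13 were positive and none passed, with a median log2 fold change of 0.06. An unadjusted p below 0.05 (limma) was met by 7, 6 of them positive. Of all genes tested 23.9% met it, and 12.4% met it with a positive fold change. Apob, the apolipoprotein of liver and gut lipoproteins, had 0.58 (limma adjusted p = 0.15), and Apom and Ttr, both carrier protein genes, had 0.06 and 0.15 (adjusted p = 0.86 and 0.59). Slc2a2, the beta cell and liver glucose transporter gene, had 0.04 (adjusted p = 0.72), at 2421, 2013 and 2456 CPM in knockdown libraries, against 2403, 1778 and 2584 CPM in control libraries. Among 18 monogenic diabetes genes, which hold Hnf4a itself, 15 could be tested, 9 were positive and none passed, with a median of 0.01.

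**Figure D4:**
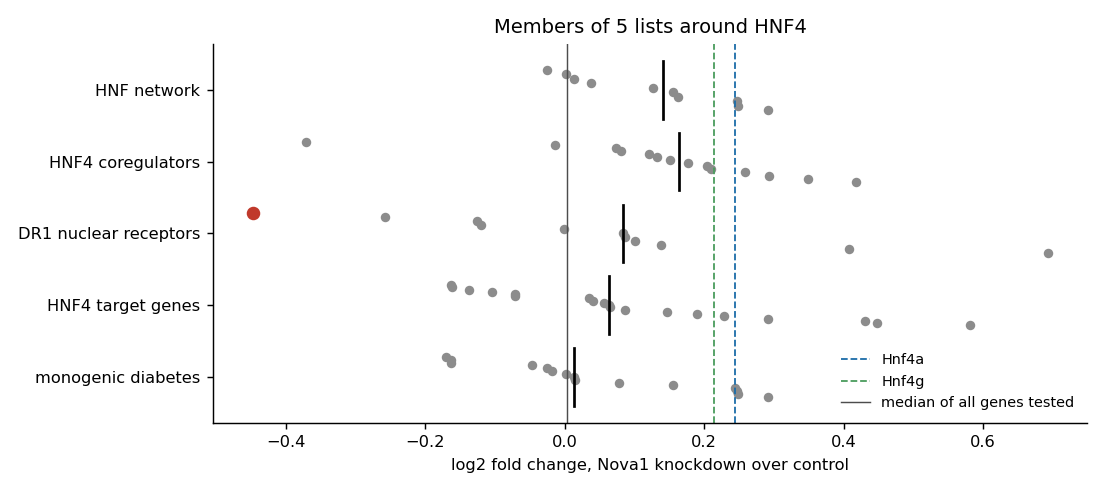
Log2 fold change, knockdown over control (x axis), of every tested gene of the 5 HNF4 pathway lists, with a mark for each list's median and a line at the median of all genes. Dashed lines mark Hnf4a and Hnf4g. The network list has 9 of 10 genes above 0 and a median of 0.14, and the monogenic diabetes list has a median of 0.01. Nr2f6 at -0.45 is the gene past the threshold.

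Hnf4a and Hnf4g are also made in other cells of the pancreas and in liver, and a bulk library cannot tell fewer cells of a type from less RNA per cell. Of 10 beta cell markers, Ins1, Ins2 and Iapp among them, 9 were above 1 RPKM and G6pc2 was near 0. Of the 9 tested, 3 were positive, with a median log2 fold change of -0.12, and the summed level was 220026 to 485039 RPKM in knockdown libraries and 295351 to 480636 RPKM in control libraries. Of the alpha, delta and PP cell markers, 8 of 9 tested were positive, with a median log2 fold change of 0.16 and summed levels of 7394 to 15789 RPKM in knockdown libraries, against 5537 to 14488 RPKM in control libraries. Of the duct markers, 4 of 5 tested were positive, with a median of 0.31 and summed levels of 140.3 to 209.1 RPKM in knockdown libraries, against 122.3 to 162.6 RPKM in control libraries. The medians of these endocrine and duct lists were positive and that of the beta cell list was negative. After the length correction the beta cell median was -0.0023, so its negative value depended on that correction. The alpha, delta and PP median was then 0.23 and the duct median 0.33. Of the acinar markers, 2 of 10 tested were positive and Ctrb1 fell, with a median of -0.38 and summed levels of 136.4 to 389.7 RPKM in knockdown libraries, against 185.9 to 517.8 RPKM in control libraries.

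Of the stellate cell and fibroblast markers, 5 of 6 tested were positive and Col3a1 rose, with a median log2 fold change of 0.76. Their summed level was 16.6 to 22.2 RPKM in knockdown libraries, against 6.65 to 14.9 RPKM in control libraries, without overlap, as for 4.76% of single genes. Pdgfrb had -0.19, and Dcn and Lum were lower in the knockdown library of batch 3. Of the immune markers, 5 of 7 were positive, Lyz2 rose and C1qa fell, with a median of 0.96 and summed levels of 13.1 to 24.4 RPKM in knockdown libraries, against 14.04 to 16.7 RPKM in control libraries.

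Of the endothelial markers, 1 of 4 tested was positive, with a median of -0.29 and sums of 1.21 to 2.48 RPKM in knockdown libraries and 1.21 to 2.41 RPKM in control libraries. Of the hepatocyte markers, 3 of 3 tested were positive, with a median of 0.45 and sums of 7.97 to 14.6 RPKM in knockdown libraries and 6.31 to 10.03 RPKM in control libraries. Alb, Afp and Apoa1 were too low to test, and the 3 tested, Apob, Ttr and Serpina1, are also in the HNF4 target list. The stellate, immune, hepatocyte and duct medians thus exceeded the fold changes of Hnf4a and Hnf4g. Only 3 of the 7 immune and 3 of the 6 stellate markers were above 1 RPKM, however. The immune median was that of Cd68, at 0.0564 to 0.282 RPKM over the libraries. The duct median was that of Krt7, while Krt19 had -0.18. No listed marker was at 0 in every library. The part of these cells in the Hnf4a and Hnf4g values was not tested.

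Genes whose level followed that of each HNF4 gene over the 6 libraries were named by Pearson's r of log2 CPM among 10386 genes of at least 1 RPKM, as a description over libraries that share batches and depth. For Hnf4a these were Lrch3 (r = 0.999), Naa25 (0.998), Pbrm1 (0.994), Uimc1 (0.994) and Npat (0.994), and 453 genes reached r of 0.95, 4.36% of those considered. For Hnf4g they were Ahr (r = 0.992), Ikbkap (0.985), Pias1 (0.978), Atp11a (0.970) and Ddx20 (0.968), and 8 genes reached 0.95. Hnf4a and Hnf4g themselves had an r of 0.475, both being highest in batch 2 among the knockdown libraries, while among the controls Hnf4a was highest and Hnf4g lowest in batch 2.

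**Figure D5:**
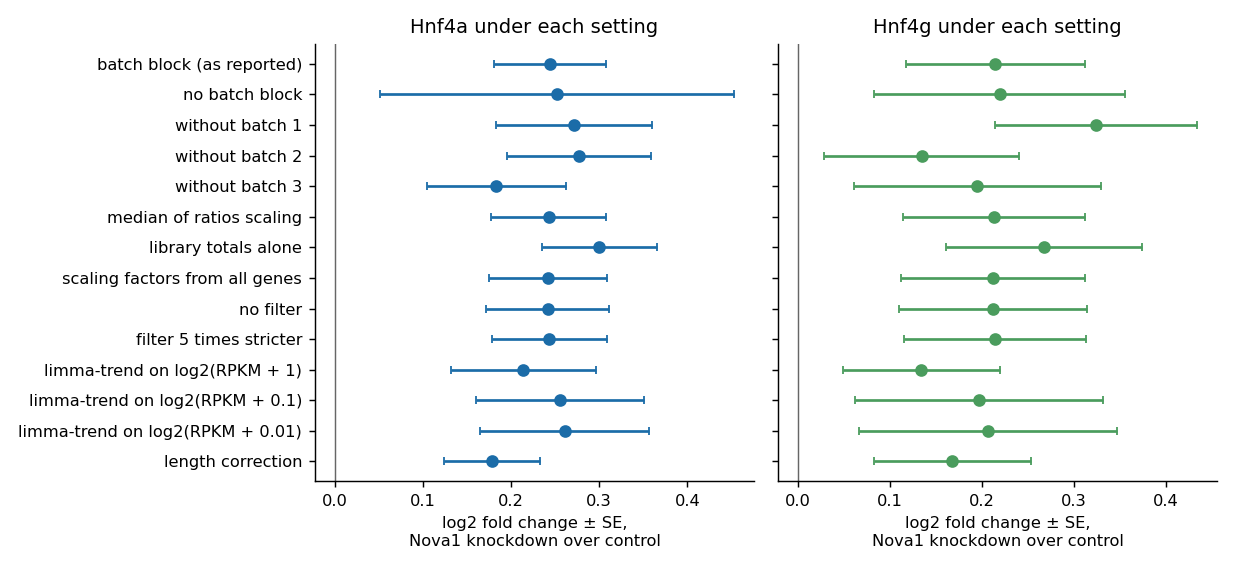
Log2 fold change of Hnf4a and Hnf4g, knockdown over control (x axis), under the fit reported and each other processing setting. All values lie above 0, from 0.18 to 0.30 for Hnf4a and from 0.13 to 0.32 for Hnf4g, and none passes an adjusted p of 0.05.

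Across these settings the direction of both genes was the same while no setting brought either past the threshold. The lowest adjusted p was 0.077 for Hnf4a and 0.19 for Hnf4g, and the highest was 1.00 for each, in the fit without the batch block.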

How the data were processed

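RNA from 6 beta cell libraries had, per the submitters' processing notes, been aligned with TopHat to Rnor_5.0. For each assembled transcript the authors deposited, per library, its length, its RPKM and an estimated count of reads, as attributes in an annotation. How reads were divided among transcripts, and with which strand setting, is not given in the sources used here. Read sums of a locus were whole numbers at 95.8% to 96.0% of loci and even at 95.8% to 96.0% (tolerance 0.01 reads for both), and the Hnf4a and Hnf4g sums were whole and even in all 6 libraries.

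Reads were summed per gene and scaled by TMM factors, trimming 30% of the log ratios and 5% of the mean levels. Genes whose rate matched 10 reads at median depth in 3 or more libraries, with 15 or more reads in all, were fitted with voom in limma 3.58.1 (R 4.3.3), with batch as a block, 2 residual degrees of freedom and Benjamini-Hochberg adjustment at 0.05. Because the reads were estimates with fractional parts per transcript, no count model was used. Transcript shares were tested with diffSplice in the same package, and summed shares with exact permutation tests. The batch numbers come from the titles, and libraries of the same batch deviated together (correlations 0.376, 0.723 and 0.555). The fits were tested on simulated data. Precision covers counting and batch spread at the depths given with the results.

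The members, the lists and several groupings were chosen with earlier results of these data known. Genes named are the members, list members past the threshold, the first 4 tested of each list, and those said to be picked later; some that this rule names are not reported here. Promoter windows came from RefSeq, which held Hnf4a.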

Additional observations from a re-analysis of the deposited data

How the results depend on the processing

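Hnf4a and Hnf4g stayed positive and short of the threshold under all 13 alternatives each (scaling, filter, pseudocount, length correction, batch block and leaving out each batch), with log2 fold changes of 0.18 to 0.30 and 0.13 to 0.32. The count of genes past the threshold, against which both are read, moved far more. It was 274 in the fit reported, 0 without the replicate block (521 at an unadjusted p below 0.05) and 0 to 75 when 1 batch was left out (0 without batch 2, 4 without batch 1). With median of ratios scaling it was 250. It was 91 with library totals alone (47 higher, 44 lower, median of all genes 0.06), 72 with scaling factors from all genes, an alternative chosen after seeing the data, 171 with no filter, 119 with a filter 5 times stricter, and 622 after length correction (177 higher, 445 lower). With limma-trend on log2(RPKM + 1), + 0.1 and + 0.01 it was 0 each (3193, 3111 and 3077 unadjusted). The cause was not tested. Without the replicate block both genes had an adjusted p of 1.00. The block changed no call of either gene or of its transcripts.

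Hnf4a transcript shares gave 0 to 2 calls when 1 batch was left out, 2 without batch 1, and 0 in the other settings, while the Hnf4g transcripts gave 0 throughout. The 2 Hnf4a calls were of forms that passed the filter only through the group where they were above 0. The difference in upstream share of Hnf4a was 6.42 points in the values reported, 4.85 by reads and 3.12 to 12.2 with 1 batch left out. Keeping only transcripts that match the reference gave no value, since those all begin at the downstream start. Of the 2 Hnf4a transcripts listed at 0 in 4 libraries, both were at 0 in the deepest, the control library of batch 1. The cause of the zeros was not tested.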
